A study of Mus musculus with 8 samples.

Results

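The mouse carboxylesterases (Ces) are serine hydrolases of the endoplasmic reticulum and, for one of them, of plasma. The 10 genes described here were taken by symbol from the liver count table, which held 16540 genes, 16 of them Ces genes. They are Ces1c, Ces1d, Ces1e, Ces1f, Ces1g, Ces2a, Ces2c, Ces2e, Ces3a and Ces3b. All 10 passed the filter on low counts, which kept 12307 genes for testing.

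Liver RNA was sequenced from 8 male Apoe-/- mice, which lack apolipoprotein E, carry high plasma cholesterol and were fed an atherogenic Western diet. 4 mice received isoginkgetin (ISOGK, a plant biflavonoid studied as an inhibitor of ATP-citrate lyase), and 4 received vehicle. ISOGK was given at 20 mg/kg/day by intraperitoneal injection for 8 weeks, begun after several weeks on the diet alone. The age of the mice is not given in the sources used here, and both groups carried the Apoe deletion and the diet, so the data hold no group with intact Apoe or on chow. The question put to the carboxylesterases was whether their liver mRNA differed between ISOGK and vehicle.

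Carboxylesterases cut ester bonds in drugs, triglycerides, cholesteryl esters and retinyl esters, and the liver makes them at high levels. They are known in this tissue for the hydrolysis of drugs and other foreign esters and for the release of fatty acids from stored triglyceride, some of which is re-esterified into very low density lipoprotein (VLDL). Many also carry a short signal at their end that keeps them in the endoplasmic reticulum, where VLDL is assembled.

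The members lay in 2 blocks on chromosome 8 of the GRCm38 (mm10) build in the GENCODE M21 annotation. The 5 Ces1 genes ran on the minus strand from 93099015 to 93337308, a block of 238 kb. The 5 Ces2 and Ces3 genes ran on the plus strand from 104734003 to 105093929, a block of 360 kb, with 11.4 Mb between the blocks. 2 short coding stretches are printed because they carry the chemistry and the location of these enzymes. The first is the codons around the active-site serine, which in serine hydrolases sits in a glycine-X-serine-X-glycine motif (X being any residue). A translation search found this motif once in each of the 10 members, always in the fifth coding exon. It is shown in capitals with 4 codons on either side, on the coding strand, for the most abundant member, the pair of Ces1 genes nearest to the test threshold, and 1 or 2 genes of the other subfamilies:
Ces1c (chr8:93123109-93123147): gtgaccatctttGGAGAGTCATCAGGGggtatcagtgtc
Ces1f (chr8:93269983-93270021): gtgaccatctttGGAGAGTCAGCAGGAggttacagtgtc
Ces1g (chr8:93328387-93328425): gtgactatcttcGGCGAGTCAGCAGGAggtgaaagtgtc
Ces2a (chr8:104737398-104737436): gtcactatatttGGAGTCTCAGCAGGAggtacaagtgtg
Ces3a (chr8:105051574-105051612): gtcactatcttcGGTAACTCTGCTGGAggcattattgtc
Ces3b (chr8:105086664-105086702): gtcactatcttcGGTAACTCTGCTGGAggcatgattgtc

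In 6 of the 10 members the motif was spelled glycine-glutamate-serine-alanine-glycine, and among the genes printed above Ces1f and Ces1g had that form. The second stretch is the last 4 codons before the stop, which in many endoplasmic reticulum esterases read histidine-X-glutamate-leucine. They are in capitals after 4 further codons and before the stop codon:
Ces1c (chr8:93099165-93099191): cctactgaacacACAGAACACAAAtga
Ces1f (chr8:93256429-93256455): ccccagccatacCACAATGAGCTGtga
Ces1g (chr8:93302905-93302931): tcccatagggaaCATGTTGAACTGtga
Ces2a (chr8:104741390-104741416): tctcaggacaagCATGCAGAGCTGtag
Ces3a (chr8:105058077-105058103): agcaggaaagttCCAGAGGAGCTCtga

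The histidine-X-glutamate-leucine ending was found in 7 of the 10 members, and Ces1c, Ces3a and Ces3b lacked it. The most abundant members, Ces1c and Ces3a, were thus among the 3 without it.

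Similarity between the genes bears on how their counts can be told apart, and identity was therefore computed over the coding sequences. Ces3a and Ces3b matched at 95.3% of bases, the closest pair of members. The 3 Ces2 members matched each other at 83.4% to 84.7%, and the 5 Ces1 members at 75.6% to 82.9%, with Ces1d and Ces1g the closest Ces1 pair. Between subfamilies the identity was 62.4% to 65.7%. Of all stretches of 50 bases in the transcript used, 30.8% of those in Ces3a and 26.1% of those in Ces3b also occurred in another Ces transcript, as did 13.4% of those in Ces1c and 6.66% of those in Ces2c. For the other 6 members the share was 0.533% to 3.36%. The closest relative of Ces1c was Ces1b, at 89.3% coding identity, and that of Ces2c was Ces2b, at 91.6%. The split of reads between Ces3a and Ces3b, and to a lesser degree the counts of Ces1c and Ces2c, are therefore uncertain.

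**Figure D1:**
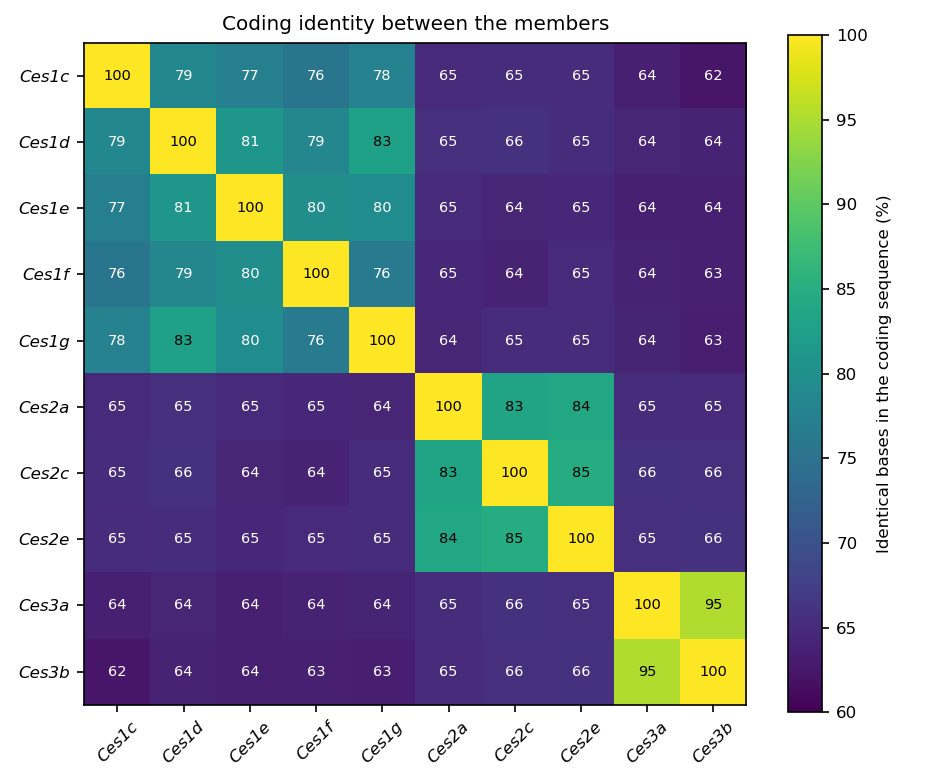
Identity of the coding sequences between the 10 members, in percent of bases, with each cell giving the pair named on its row and column. The Ces3a and Ces3b pair stands at 95%, the Ces2 pairs at 83% to 85%, the Ces1 pairs at 76% to 83%, and pairs from different subfamilies at 62% to 66%.

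The 8 libraries held 17457106 to 24461854 counts, and values are given as CPM, counts divided by the normalized library size. The members had 177 to 67807 counts per gene and library. The hepatocyte markers summed to 154575 to 205929 CPM over the 8 mice and none of the 10 was called. The Kupffer cell markers summed to 1182–1512 CPM with vehicle and 956–1234 CPM with ISOGK, with 1 of 10 called lower. The cholangiocyte markers summed to 45.4–56.2 and 48.4–93.6 CPM, with 1 of 8 tested called higher. Over all genes tested 7.55% were called, so 1 call in 10 or in 8 is near that share. The intestine markers, of which 6 of 10 were in the table and 3 were tested, summed to 209–247 CPM with vehicle and 406–757 CPM with ISOGK, without overlap, with 2 called higher. Most of that sum was Apoa4, which liver also makes, at 3417 to 5411 counts with vehicle and 7447 to 13649 with ISOGK. Fabp2 had 511 to 835 counts with vehicle and 505 to 777 with ISOGK, and Lgals4 had 60 to 84 and 68 to 149. Lct had at most 1 count, Muc2 at most 2 and Vil1 at most 8 in any library. In bulk liver, fewer cells of a type and less RNA per cell cannot be told apart, and the part of cell composition in the values below was not tested. A muscle marker list summed to at most 0.576 CPM in each ISOGK mouse and to 71.1 CPM in vehicle mouse 4. No muscle marker had more than 9 counts in any other vehicle mouse, against 22 to 451 counts in vehicle mouse 4.

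No member passed the test between ISOGK and vehicle. By edgeR's quasi-likelihood test with Benjamini-Hochberg adjustment, 0 of the 10 were called at an adjusted p under 0.05, where 7.55% of all genes tested were called, 4.11% higher (506 genes) and 3.44% lower (423 genes). None of the 10 had an absolute log2 fold change over 1, a size that 1.63% of all genes passed together with the test. At an unadjusted p under 0.05, 2 of the 10 members were lower (Ces1f and Ces1g) and 0 higher, beside 11.6% of all genes lower and 24.2% in either direction. DESeq2 called 1 of the 10 (Ces1g, lower), where it called 11.7% of all genes, and limma-voom called 0, where it called 7.09%. The groups overlapped in all 10 members, whereas 15.3% of all genes had groups without overlap, 7.36% with ISOGK below and 7.92% with ISOGK above. 7 members had a negative log2 fold change and 3 a positive one, where 49.8% of all genes were negative, and the median was -0.14 beside 0.0018 over all genes. The lowest bound of any member's 95% interval was -0.86 (Ces1g) and the highest 1.02 (Ces2c) on the log2 scale. The intervals were narrower for the most abundant members, at -0.35 to 0.11 for Ces1c and -0.27 to 0.17 for Ces3a. That of the less abundant Ces2a was about as narrow, at -0.38 to 0.05.

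**Figure D2:**
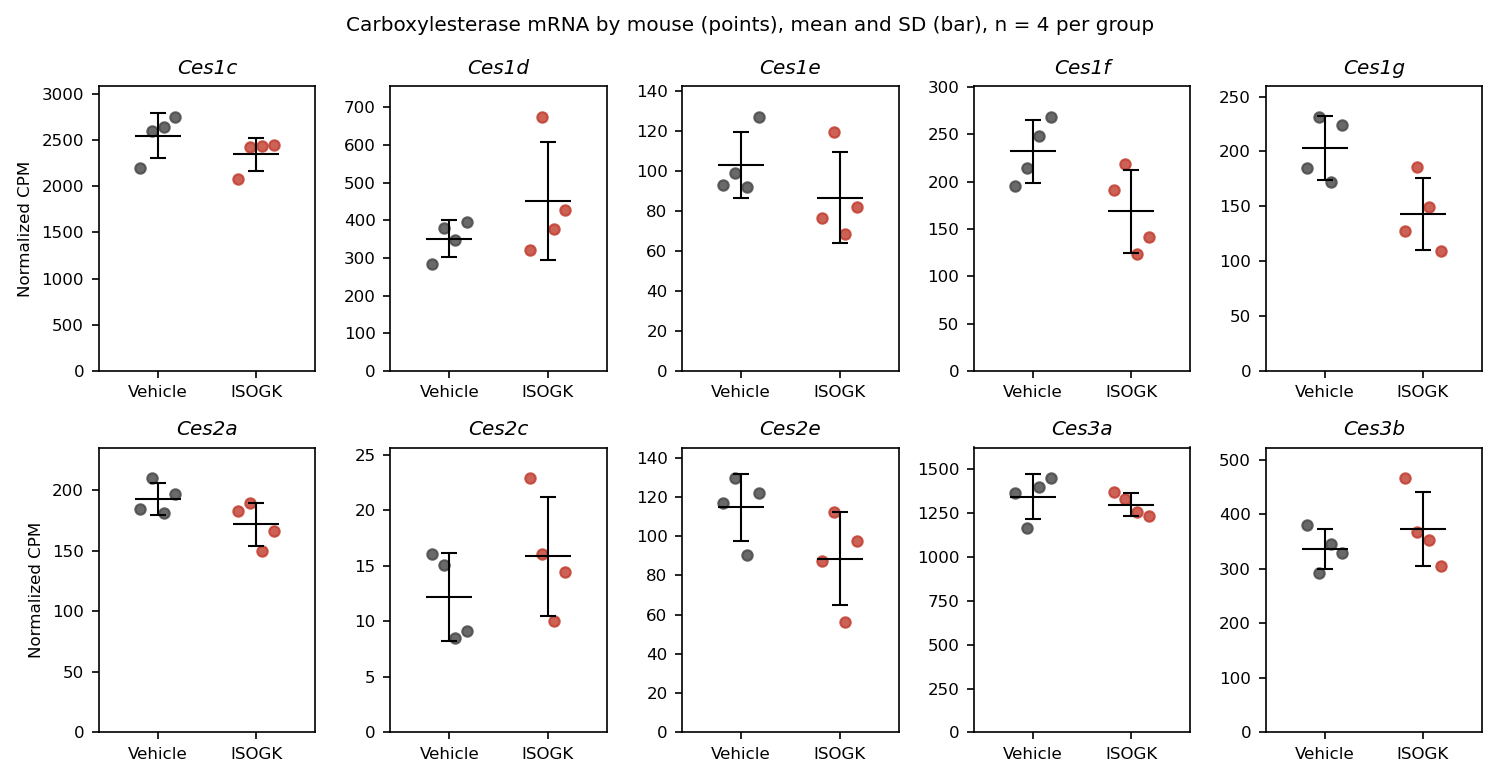
Normalized CPM of each member in every mouse, vehicle in grey and ISOGK in red, with the mean and SD of 4 mice as a bar and whiskers on a linear axis that starts at 0. The groups overlap in every panel, and ISOGK mouse 2 is the high red point for Ces1d, Ces1e, Ces1f, Ces1g, Ces2a and Ces2e.

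The members differed far more from each other than between groups. Scaled to exon length, Ces1c stood at 1097 ± 104 CPM per kb in vehicle mice (SD, n = 4), followed by Ces3a at 511 ± 47.9. Each of these was apart from the next gene in all 8 mice. Ces1d (148 ± 20.8 CPM per kb) and Ces3b (131 ± 14.2) came next and overlapped each other. Ces1g (85.1 ± 12.2), Ces2a (81.9 ± 5.59) and Ces1f (70.6 ± 10.05) formed an overlapping trio, as did Ces1e (47.0 ± 7.55) with Ces2e (42.5 ± 6.33). Ces2c was lowest, at 5.31 ± 1.72 CPM per kb. With ISOGK the order was the same apart from Ces2a (73.0 ± 7.52) and Ces1g (59.8 ± 13.9), which changed places within their overlap. By mean CPM over all mice, Ces1c was gene 55 and Ces3a gene 91 of the 12307 tested, and Ces2c was gene 5673.

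The Ces1 genes hold the best known liver triglyceride hydrolases. Ces1g, a hydrolase of triglyceride and cholesteryl ester, came nearest to the threshold. It measured 185, 232, 172 and 224 CPM in the vehicle mice and 128, 186, 149 and 109 CPM in the ISOGK mice. All but ISOGK mouse 2 were below every vehicle mouse. The log2 fold change was -0.51 (SE 0.160, 95% interval -0.86 to -0.16), with an edgeR adjusted p of 0.0776. An exact two-sided permutation test of the same 8 values gave p = 0.0857. Without ISOGK mouse 2 the log2 fold change was -0.66, with an edgeR adjusted p of 0.0275, and 3.79% of all genes were called in that fit.

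Ces1f, another endoplasmic reticulum triglyceride hydrolase, measured 195, 215, 248.8 and 269 CPM with vehicle. With ISOGK it measured 191, 218, 123 and 142 CPM. ISOGK mouse 2 lay among the vehicle mice, ISOGK mouse 1 just under the lowest of them, and ISOGK mice 3 and 4 well below. The log2 fold change was -0.46 (SE 0.174, 95% interval -0.84 to -0.08) and the edgeR adjusted p was 0.134.

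Ces1d, the triacylglycerol hydrolase that mobilizes stored triglyceride for VLDL, had a positive difference that rested on 1 mouse. It measured 284, 379, 347 and 396 CPM with vehicle and 321, 676, 377 and 429 CPM with ISOGK. ISOGK mouse 2 was far above the other 7 mice, which overlapped. The log2 fold change of 0.36 (SE 0.211, edgeR adjusted p = 0.335) was 0.10 without that mouse.

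Ces1c, the esterase that the liver secretes into plasma, measured 2199, 2602, 2640 and 2756 CPM with vehicle. With ISOGK it measured 2075, 2426, 2441 and 2445 CPM. ISOGK mouse 1 was the lowest of the 8, and the other 3 ISOGK mice lay close together between the lowest vehicle mouse and the next. Its log2 fold change was -0.12, with an interval of -0.35 to 0.11 and an edgeR adjusted p of 0.534, and it was -0.065 without ISOGK mouse 1. Ces1e, known as egasyn for holding beta-glucuronidase in the endoplasmic reticulum, had a mean of 103 ± 16.5 CPM with vehicle and 86.7 ± 22.7 CPM with ISOGK (SD, n = 4 each). The fold change on the log2 scale was -0.25, with an interval of -0.62 to 0.13 and an edgeR adjusted p of 0.411. It was -0.13 without vehicle mouse 4, -0.15 without ISOGK mouse 3 and -0.44 without ISOGK mouse 2.

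The Ces2 genes encode carboxylesterases with broad activity on drug esters and, for some, on acylglycerols. Ces2e measured 117, 130, 90.4 and 122 CPM with vehicle and 87.6, 112, 56.4 and 97.3 CPM with ISOGK. ISOGK mouse 3 was the lowest of the 8, and the other 3 lay among or just below the vehicle mice. The log2 fold change was -0.38 (SE 0.191, 95% interval -0.80 to 0.05, edgeR adjusted p = 0.260), and -0.22 without ISOGK mouse 3. Ces2a, the most abundant Ces2 member, was at 193 ± 13.2 CPM with vehicle and 172 ± 17.7 CPM with ISOGK, and its fold change on the log2 scale, -0.17, had an edgeR adjusted p of 0.340. Ces2c, a gene best known from intestine, was the least abundant member, at 8.49 to 16.1 CPM with vehicle and 10.01 to 22.9 CPM with ISOGK. Its interval was the widest, from -0.25 to 1.02 around 0.38 (edgeR adjusted p = 0.452), and the estimate was 0.15 without ISOGK mouse 1 and 0.24 without vehicle mouse 3.

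The Ces3 genes are expressed mainly in liver, and their natural substrates are less well described. Ces3a stood at 1344 ± 126 CPM with vehicle and 1298 ± 64.8 CPM with ISOGK. Its interval of -0.27 to 0.17 around a fold change of -0.05 was among the narrowest (edgeR adjusted p = 0.807). Ces3b stood at 337 ± 36.5 and 373 ± 67.6 CPM, a log2 fold change of 0.15 with an interval of -0.14 to 0.44 (edgeR adjusted p = 0.539), and 0.022 without ISOGK mouse 1. Since the pair shares long stretches of sequence, their sum is the safer value. It was 1455 to 1779 CPM with vehicle and 1539 to 1838 CPM with ISOGK.

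**Figure D3:**
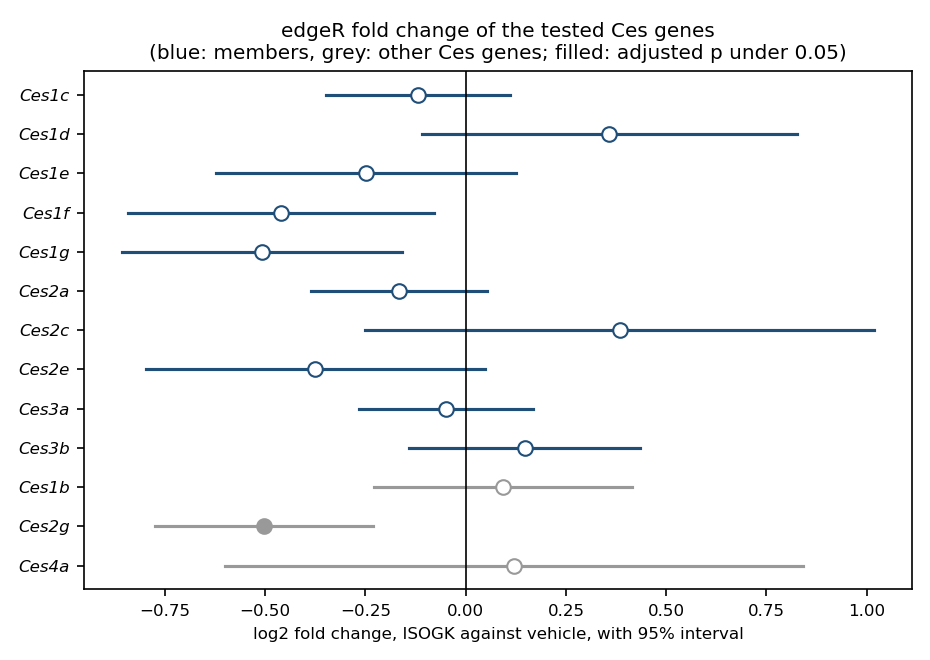
log2 fold change of ISOGK against vehicle with its 95% interval from edgeR, members in blue and the other tested Ces genes in grey, with filled points for an adjusted p under 0.05. Only Ces2g, which is no member, is filled, and among the members the intervals of Ces1f and Ces1g alone leave out 0.

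The summed level of the family overlapped between the groups. The 10 members summed to 5019 to 5879 CPM with vehicle (mean 5440 ± 360) and to 4923 to 5643 CPM with ISOGK (5144 ± 335). As a part of all counts this was 0.510% to 0.615% and 0.443% to 0.542%. ISOGK mouse 2 had the highest value of its group in 6 of the 10 members and the lowest in 0, and ISOGK mouse 3 had the highest in 0 and the lowest in 5. Among vehicle mice, mouse 4 had the highest in 5 and the lowest in 0, and mouse 3 the highest in 0 and the lowest in 5. The coefficient of variation was larger with ISOGK than with vehicle in 8 of the 10 members, with medians of 24.5% and 14.1%. This was not compared with all genes, so the wider spread is not shown to be particular to the family.

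The make-up of the family was compared as the share of each member in the summed counts of all 10, which does not depend on the scaling between libraries. Ces1c and Ces3a together made up most of it, at 46.8% and 24.7% in the vehicle means and 45.7% and 25.3% in the ISOGK means. The share of Ces1f was 3.90%, 4.03%, 4.50% and 4.57% in the vehicle mice and 3.88%, 3.87%, 2.47% and 2.82% in the ISOGK mice. The ISOGK mice thus all lay below the vehicle mice, though 2 of them by little. The difference in means was -0.988 percentage points, and an exact two-sided permutation test gave p = 0.0286, the smallest p that 4 against 4 mice allow. This was 1 of 10 such tests, and the p is not adjusted for them. Leaving out any vehicle mouse or ISOGK mouse 3 gave exact permutation p of 0.0571 to 0.143 and differences of -1.11 to -0.726. The groups still did not overlap, which was fixed in advance because they were fully apart with all mice. The p rose because, with groups of unequal size, other splits of the mice gave differences at least as large. The share of Ces1g was 3.74% against 2.76% (exact permutation p = 0.0571, n = 4 each) and that of Ces1d 6.44% against 8.65% (exact permutation p = 0.0857, n = 4 each), both with overlapping groups. Without ISOGK mouse 1 the difference for Ces1d was 2.91 percentage points (exact permutation p = 0.0286), and without ISOGK mouse 2 it was 1.09 (exact permutation p = 0.143), against 2.20 with all mice. For the other 7 members the exact permutation p ran from 0.2 to 0.8.

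**Figure D4:**
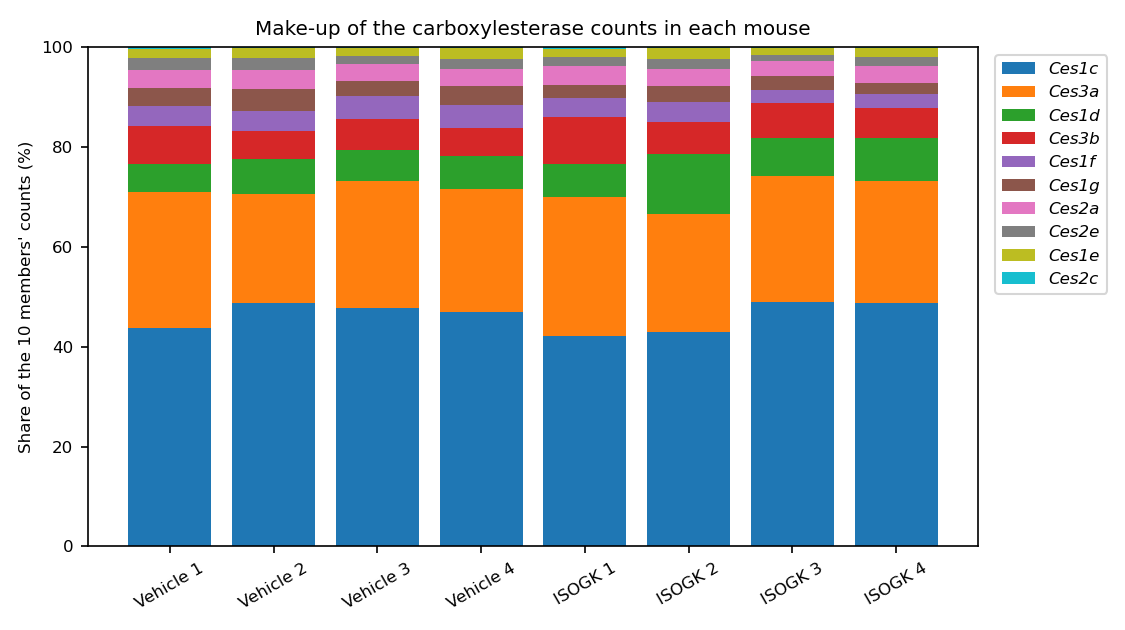
Share of each member in the summed counts of the 10 members, in percent, as 1 stacked bar per mouse. Ces1c and Ces3a fill most of every bar, Ces1d is widest in ISOGK mouse 2 at 12.0%, and the Ces1f band is narrowest in ISOGK mice 3 and 4.

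The table held 6 further Ces genes, of which 3 could be tested. Ces2g, a neighbour of the Ces2 members, measured 33.9, 43.4, 30.3 and 38.6 CPM with vehicle and 24.1, 30.2, 23.7 and 25.2 CPM with ISOGK. All ISOGK mice lay below all vehicle mice (7.36% of all genes). It was called lower, as were 3.44% of all genes, at a log2 fold change of -0.50 (SE 0.125, edgeR adjusted p = 0.0322). Leaving out vehicle mouse 1, 2 or 4 or ISOGK mouse 1 or 4 ended the call, with adjusted p up to 0.110. Ces1b stood at 60.2 ± 11.7 and 64.2 ± 9.84 CPM (log2 fold change 0.09, edgeR adjusted p = 0.752) and Ces4a at 1.56 and 1.67 CPM (0.12, edgeR adjusted p = 0.860). Ces1a, Ces2b and Ces2h had at most 6 counts in any library and were not tested.

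The carboxylesterases share their substrates with many other lipases and esterases, and 33 of these were tested. 6 were called higher and 4 lower by edgeR, beside 4.11% higher and 3.44% lower over all genes. The median log2 fold change of the list was -0.04. Mgll, which cleaves monoacylglycerol, rose from 86.8 ± 14.2 to 159 ± 22.1 CPM (log2 fold change 0.88, edgeR adjusted p = 0.00336). Lpl, the lipoprotein lipase of capillary walls, fell from 87.6 ± 6.18 to 44.0 ± 12.6 CPM (log2 fold change -0.995, edgeR adjusted p = 0.00951). Abhd14b and Bphl, a pair of alpha/beta-hydrolase genes, fell by 0.51 and 0.53 on the log2 scale (edgeR adjusted p = 0.0136 and 0.0153). The number called was 5 with total library size alone, 4 without vehicle mouse 2, and 5 without vehicle mouse 3, vehicle mouse 4 or ISOGK mouse 2.

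**Figure D5:**
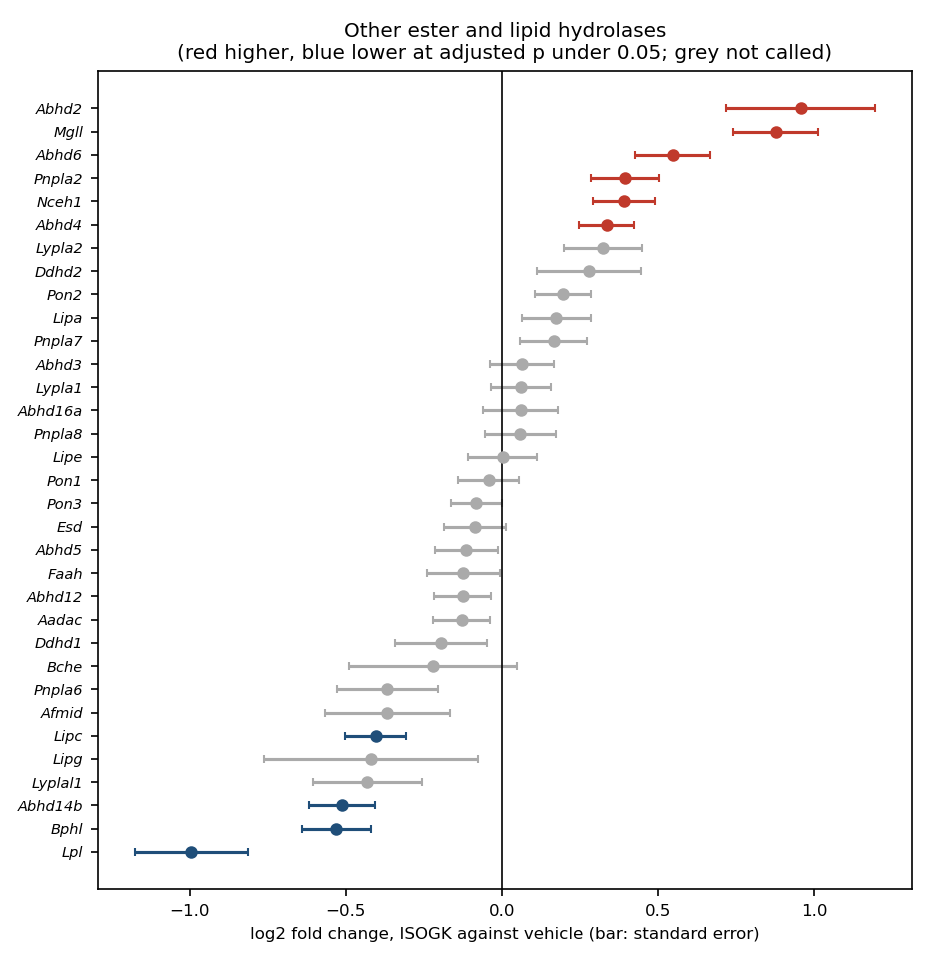
log2 fold change of ISOGK against vehicle for the 33 other ester and lipid hydrolases tested, with the standard error from edgeR as a bar, red for called higher, blue for called lower and grey for not called. 6 are red, 4 are blue and 23 are grey.

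VLDL assembly is the step that uses fatty acids released by the triglyceride hydrolases. Of its genes 2 of 22 were called, both higher, where 7.55% of all genes were called and 4.11% were higher. Mttp, the transfer protein that loads lipid onto apolipoprotein B, rose from 273 ± 27.8 to 391 ± 27.1 CPM (log2 fold change 0.52, edgeR adjusted p = 0.0112), and Sort1, a sorting receptor, from 11.3 ± 2.33 to 18.8 ± 2.37 CPM (0.73, edgeR adjusted p = 0.0154). The median of the list was 0.03, and 1 was called without vehicle mouse 2 or ISOGK mouse 2 and 5 without ISOGK mouse 3. Of 23 receptors and factors linked to Ces expression, 1 was called higher and 2 lower, beside 4.11% and 3.44% of all genes. Nr1i3, the nuclear receptor CAR, rose from 74.5 ± 6.35 to 102 ± 16.7 CPM (log2 fold change 0.45, edgeR adjusted p = 0.0415). Nr3c1, the glucocorticoid receptor, fell from 51.3 ± 4.74 to 38.6 ± 4.32 CPM (edgeR adjusted p = 0.0376), and Ghr, the growth hormone receptor, from 222 ± 12.9 to 162 ± 16.3 CPM (edgeR adjusted p = 0.0181). With vehicle mouse 1 or 2 left out 0 of the list were called by edgeR, and with vehicle mouse 3, vehicle mouse 4 or ISOGK mouse 4 left out 1 was called. The call of Nr1i3 was lost in 7 of 16 alternatives, that of Nr3c1 in 7 and that of Ghr in 3.

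Among 19 tested genes of retinyl ester handling, another substrate of carboxylesterases, 3 were called higher and 1 lower, beside 4.11% and 3.44% of all genes. Retsat, retinol saturase, was higher in every ISOGK mouse than in any vehicle mouse, as were 7.92% of all genes. Its mean was 417 ± 70.7 CPM with vehicle and 1048 ± 101 CPM with ISOGK (log2 fold change 1.33, edgeR adjusted p = 0.000338). Rbp4, which carries retinol out of the liver, rose by a log2 fold change of 0.38 and Dgat1, which esterifies diacylglycerol and retinol, by 0.60 (edgeR adjusted p = 0.0381 and 0.0161). Bco2, a carotenoid oxygenase, fell by 0.77 on the log2 scale (edgeR adjusted p = 0.00607). Without ISOGK mouse 2, 2 of the list were called. The call of Rbp4 was lost in 8 of 16 alternatives, namely library size alone, a replicate block, and omission of any vehicle mouse or of ISOGK mouse 1 or 2, with adjusted p up to 0.150. Among 16 genes of the cholesteryl ester cycle, Nceh1, a cholesteryl ester hydrolase, rose (log2 fold change 0.39, edgeR adjusted p = 0.0347), a call that was lost in 8 of 16 alternatives. These were library size alone, a replicate block, and omission of vehicle mouse 2, 3 or 4 or ISOGK mouse 2, 3 or 4, with adjusted p up to 0.125. Abcg5, a sterol exporter, and Stard4, a sterol carrier, fell, with log2 fold changes of -0.62 and -1.14 (edgeR adjusted p = 0.0109 and 0.0110). In all, 1 of these 16 genes was called higher and 2 lower, beside 4.11% and 3.44% of all genes. The medians of the last 2 lists were -0.16 and -0.20, beside 0.0018 over all genes.

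The genes whose profile over the 8 mice was most like that of Ces1g were Nipsnap1, Abhd17c, Arsb, Sc5d and Aqp8, at root mean square distances of 0.204 to 0.259 between scaled log2 CPM profiles. Sc5d encodes a sterol desaturase of cholesterol synthesis and Aqp8 a water channel. None of the 5 was called by edgeR at an adjusted p under 0.05. Their log2 fold changes ran from -1.10 for Aqp8 to -0.16 for Arsb. The likeness is a description over 8 mice of both groups.

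RefSeq promoter sequences (250 bases before to 50 after the start, GRCm38.p6) were matched for 7 of the members. The nuclear receptor half-site AGGTCA, searched on both strands, occurred in 1 of the 7, Ces2a, and in 16.3% of all 32851 promoters. A direct repeat of it with 1 base between occurred in 0 of the 7 and in 0.0396% of all promoters. The pattern TGANNNNGC, part of the antioxidant response element, occurred in 2 of the 7, Ces1g and Ces2a, and in 41.3% of all promoters.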

How the data were processed

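Liver mRNA was sequenced from 8 mice, 4 per group, and the deposited table holds raw read counts per gene, which the authors made by aligning reads to the mouse genome (mm10 per the labels). The annotation release and whether counting used strand are not given in the sources used here. The 8 sample columns were all used, and each label names a separate mouse sample by treatment and number.

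Counts were filtered with filterByExpr (minimum count 10, minimum total 15), scaled by TMM and tested with edgeR 4.0.16 (quasi-likelihood, robust, group as the only term) in R 4.3.3. Every fit ran on the whole table, p-values were Benjamini-Hochberg adjusted over all 12307 genes, and a call is an adjusted p under 0.05. Shares and single values were compared by exact two-sided permutation of the mice on log2 CPM or shares. DESeq2 1.42.0, limma-voom (limma 3.58.1), other scalings and filters, a replicate block and omission of each mouse were the alternatives. The scripts were tested on simulated data. Coding sequences came from GENCODE M21 and were aligned with Biopython 1.88.

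Named genes are all Ces genes in the table, the called genes of each list (at most 4, taken by smallest adjusted p), and the 5 non-Ces genes nearest in profile to the member with the smallest adjusted p. The members and lists were chosen with earlier results of these data known. Intervals cover 95%. With 4 mice per group the smallest exact permutation p is 0.0286.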

Additional observations from a re-analysis of the deposited data

Results flagged for a closer look

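Each group's highest and lowest mouse was compared with the others by Dixon's ratio of the gap to the range, in 22 groups of 4 mice, and 2 passed its 95% limit where chance gives about 1 in 20, or 1.1 of 22. For Ces1c, ISOGK mouse 1 was low at 2075 CPM, with the other 3 at 2426 to 2445 CPM, and the gap made up 0.949 of the range. For the summed CPM of the 10 members, ISOGK mouse 2 was high at 5643 CPM, with the other 3 at 4923 to 5023 CPM, a gap of 0.861 of the range. Without ISOGK mouse 2, 1 of the 10 members (Ces1g) was called by edgeR, as were 3.79% of all genes.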

How the results depend on the processing

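All 16 alternatives kept the sign of the log2 fold change of each of the 10 members, and 157 of 160 refits kept the member on the same side of the threshold. The other 3 called Ces1g, at -0.51 with DESeq2, -0.63 with total library size alone and -0.66 without ISOGK mouse 2, so that the number of members called was 1 of 10 in each of these (0 to 1 over omissions of single mice), where 11.7%, 8.66% and 3.79% of all genes were called. Scaling by library size alone moved the median of all genes to -0.13, and there Ces1b was at -0.032 and Ces4a at -0.013. Over omissions of single mice Ces1g ran from -0.66 to -0.40 and Ces4a from -0.13 (without ISOGK mouse 1) to 0.38 (without vehicle mouse 1), with -0.06 without vehicle mouse 2. The cause was not tested.

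Called genes numbered 6 in VLDL assembly and 7 in the cholesteryl ester cycle with DESeq2 (11.7% of all genes called), against 2 and 3 (7.55%). With library size alone (8.66% of all genes called) they numbered 5 for other hydrolases, 1 for VLDL assembly and 6 for the cholesteryl ester cycle. Omitting single mice gave 4 to 8 other hydrolases, 1 to 5 VLDL genes, 0 to 2 Ces regulators, 2 to 5 retinyl ester genes, 2 to 4 cholesteryl ester genes and 0 to 1 further Ces genes.

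The difference in share for Ces1f was -1.19 to -0.726 percentage points over these omissions, and for Ces1d it was 1.09 to 2.91. That of Ces1c was 0.0684 without ISOGK mouse 1, over a range of -2.20 to 0.0684. That of Ces3a was -0.415 without vehicle mouse 2 and -0.284 without ISOGK mouse 1, over a range of -0.415 to 1.38.

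The labels do not say that mice with the same number were paired. The correlations of their deviations were -0.014 to 0.085, which does not settle whether such mice shared a batch. With a replicate block 0 members and 5 cholesteryl ester genes were called, and 827 genes in all against 929. The block took the SE of Ces2e from 0.191 to 0.106 and that of Ces2c from 0.283 to 0.128, while that of Ces1f went from 0.174 to 0.200. Ces2e and Ces1g then lay close to the threshold, at edgeR adjusted p of 0.0505 and 0.0547. At 4 mice per group the intervals of single members limit what could be seen.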
